A study of Mus musculus with 96 samples.

Results

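The 8 genes described here, Nlrp14, Nlrp4a, Nlrp4b, Nlrp4c, Nlrp4e, Nlrp9a, Nlrp9b and Nlrp9c, are mouse NLRP genes of the oocyte that are not counted among the genes of the subcortical maternal complex. They were taken as a named list, and all 8 were among the 36935 gene symbols of the count table. NLRP proteins carry an NTP-binding NACHT domain and leucine-rich repeats. Some of them, such as NLRP3, sense microbial or damage signals and assemble inflammasomes. Mammals have in addition NLRP genes whose RNA is made in the growing oocyte and stored in the egg, and maternal RNA of this kind is cleared as the embryo turns on its own genes. Among these, Nlrp14 is needed in the egg for early development of the mouse embryo and has been tied to the UHRF1 protein and to calcium handling by NCLX. Mouse Nlrp9b is also known as a sensor of rotavirus RNA in the intestine.

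The study sequenced RNA of single oocytes arrested at metaphase II (MII), and of single 2-cell blastomeres, in mice with a proline-to-alanine variant of Padi6, an oocyte gene of the cytoplasmic lattices. By label, 22 libraries came from Padi6P620A/P620A oocytes, 22 from Padi6+/+ oocytes, 22 from Padi6MatP620A/+ 2-cell blastomeres, in which the mother gave the variant, 22 from Padi6+/+ 2-cell blastomeres, and 8 were negative controls. All cells came from superovulated females of 4 to 8 weeks, with oocytes taken 13 h after hCG, and embryos were made by in vitro fertilisation with sperm of males of 8 to 12 weeks. The labels name no animal, so libraries may share a mother or an embryo, and gene counts do not show which Padi6 base a library carries.

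Libraries entered only if they held 100000 gene counts or more over 4000 detected genes or more, which left 79 of 96, with totals of 162539 to 5762563 counts. The stage labels went against the RNA in many libraries, so the libraries were sorted by a pair of genes instead. Mos, the kinase that holds the egg in metaphase II, at 100 CPM or more (counts scaled to a library total of 1000000) made a library oocyte-like (39 libraries). Mos below 100 CPM with a count of Zfp352, a gene switched on at the 2-cell stage, made it 2-cell-like (39 libraries). The lowest Zfp352 levels in that class were 0.566 CPM in library 29, 2.25 CPM in library 48 and 2.74 CPM in library 41. A limit of 10 CPM of Zfp352 was among the alternatives tried. By label, the 2-cell-like libraries were 19 of mutant oocytes, 7 of wild-type oocytes, 11 of mutant 2-cell blastomeres, 0 of wild-type 2-cell blastomeres and 2 negative controls. The oocyte-like libraries were 0 of mutant oocytes, 12 of wild-type oocytes, 9 of mutant 2-cell blastomeres, 14 of wild-type 2-cell blastomeres and 4 negative controls. The other kept library, number 86, is labelled mutant 2-cell and fell in neither class. Markers that the sorting did not use differed between the classes too. Without Zfp352, a sum of 5 markers of the 2-cell stage had a median of 660 CPM (30.0 to 2441 CPM) in 2-cell-like libraries. In oocyte-like libraries its median was 0 CPM (0 to 11.1 CPM), with Tdpoz4, AF067061 and Eif1ad6 at 0. Without Mos, a sum of 7 oocyte markers had a median of 3944 CPM in 2-cell-like and 30305 CPM in oocyte-like libraries. Markers of cumulus and granulosa cells were detected for 11 of 14 genes in 2-cell-like libraries, with Ptx3, Hsd17b1 and Thbs1 at 0 and a summed level of 0 to 139 CPM. They were detected for 14 of 14 genes in oocyte-like libraries, with a summed level of 0.259 to 11638 CPM, and 11 of the 39 oocyte-like libraries reached 1000 CPM.

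All 8 genes lie on chromosome 7. In the RefSeq annotation of GRCm38.p6, Nlrp9c, Nlrp4a and Nlrp9a are consecutive protein-coding genes, and Nlrp4e is next to Nlrp5. Their transcripts in GENCODE M21 fall into 3 groups by sequence. Nlrp14 was 46.9% to 50.9% identical to the other members over the aligned bases, the Nlrp4 members were 76.9% to 93.1% identical to each other, and the Nlrp9 members 82.7% to 88.0%. The closest pair was Nlrp4c and Nlrp4e. Reads can be split between genes with shared sequence. Of the 50-base windows, 36.9% of those of Nlrp4e and 11.9% of those of Nlrp4c also occur in the transcript of another gene. The share was 6.54% for Nlrp9a, 6.22% for Nlrp9b, 4.99% for Nlrp9c, 3.11% for Nlrp4a, and 0% for Nlrp4b and Nlrp14. Nlrp4e shared the most windows with Gm16443 (1033), and Nlrp4a with Gm8728 (63), genes outside the 8. Nlrp4c shared the most with Nlrp4e (276). The levels of Nlrp4e and Nlrp4c are uncertain to that extent, since the handling of multiply mapped reads is not given in the sources used here.

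The bases before the start sites of the Nlrp9 genes are shown because Nlrp9a and Nlrp9c share most of them, while the levels of these neighbours differed. The sequences are the 250 bases before the RefSeq start, GRCm38.p6, in the direction of the gene: chr7:26534773-26535022 on the plus strand for Nlrp9a, chr7:26403701-26403950 on the minus strand for Nlrp9c, and chr7:20007773-20008022 on the plus strand for Nlrp9b. Capitals mark runs of 12 or more bases that are identical in the aligned Nlrp9a and Nlrp9c windows. These windows reach 50 bases past the start, so the capitals at the end of the Nlrp9c stretch pair with Nlrp9a bases past its start, which are not printed.
Nlrp9a: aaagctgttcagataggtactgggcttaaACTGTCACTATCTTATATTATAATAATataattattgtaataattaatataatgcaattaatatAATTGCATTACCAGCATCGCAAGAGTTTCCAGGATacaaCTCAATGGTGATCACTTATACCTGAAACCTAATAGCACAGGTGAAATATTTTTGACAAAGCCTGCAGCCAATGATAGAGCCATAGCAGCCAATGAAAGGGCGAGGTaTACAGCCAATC
Nlrp9c: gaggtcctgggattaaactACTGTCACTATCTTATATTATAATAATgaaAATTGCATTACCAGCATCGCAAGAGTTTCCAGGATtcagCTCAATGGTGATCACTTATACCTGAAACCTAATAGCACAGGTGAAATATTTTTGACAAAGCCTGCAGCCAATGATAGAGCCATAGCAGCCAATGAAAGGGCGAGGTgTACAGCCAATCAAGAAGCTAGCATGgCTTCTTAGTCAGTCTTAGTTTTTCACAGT
Nlrp9b: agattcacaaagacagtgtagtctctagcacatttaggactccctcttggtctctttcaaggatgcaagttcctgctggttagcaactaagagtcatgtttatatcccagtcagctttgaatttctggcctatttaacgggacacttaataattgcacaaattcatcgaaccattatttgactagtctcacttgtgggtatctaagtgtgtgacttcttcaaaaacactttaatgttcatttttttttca
The windows from 250 bases before to 50 bases after the start were 96.4% identical between Nlrp9a and Nlrp9c over 253 aligned bases, with a longest shared run of 106 bases in the stretch shown. The Nlrp9b window was 47.8% identical to that of Nlrp9a and 43.1% to that of Nlrp9c. When both strands were searched, the motif TAATTA and the similar motif TAATTG, letters of the kind bound by the oocyte homeobox factor NOBOX, each occurred at 2 places in the Nlrp9a window, with no overlap, all within or at the edge of a stretch in lower case. TAATTG occurred at 1 place in the Nlrp9b window, and neither was found in the Nlrp9c window or in the windows of Nlrp4a, Nlrp4b, Nlrp4c and Nlrp4e. Of 32851 RefSeq promoter windows of this length, 5.29% hold TAATTA and 8.0% hold TAATTG. The E-box CANNTG, bound by FIGLA among many others, was found in every member window searched and in 72.3% of all windows. A match says only that these letters are present.

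Between the classes, 4 of the 8 genes were at least 2-fold lower in 2-cell-like than in oocyte-like libraries (Nlrp14, Nlrp4a, Nlrp4b and Nlrp9b), 0 were at least 2-fold higher, and Nlrp9c was higher by less than 2-fold. Among all 9677 genes compared, 27.8% were lower and 20.9% higher by that much. The median log2 ratio was -0.61 over the 8 members and -0.08 over all genes. The level of a class here is its CPM after summing counts over libraries, and the ratio has an exact conditional binomial 95% interval. A class of single cells with no named animals counts as 1 sample, so no test was run, and intervals cover counting error only. CPM is a share of a library's counts, and RNA per cell was not measured. The classes themselves come from Mos and Zfp352 and not from the members. The cumulus and granulosa marker sum also moved with the classes. Without the libraries at 1000 CPM or more of these markers, the 4 lower members were as low or lower, with log2 ratios of -2.42 for Nlrp14, -2.28 for Nlrp4b, -1.47 for Nlrp9b and -1.37 for Nlrp4a, and Nlrp9c stood at 0.72.

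**Figure D1:**
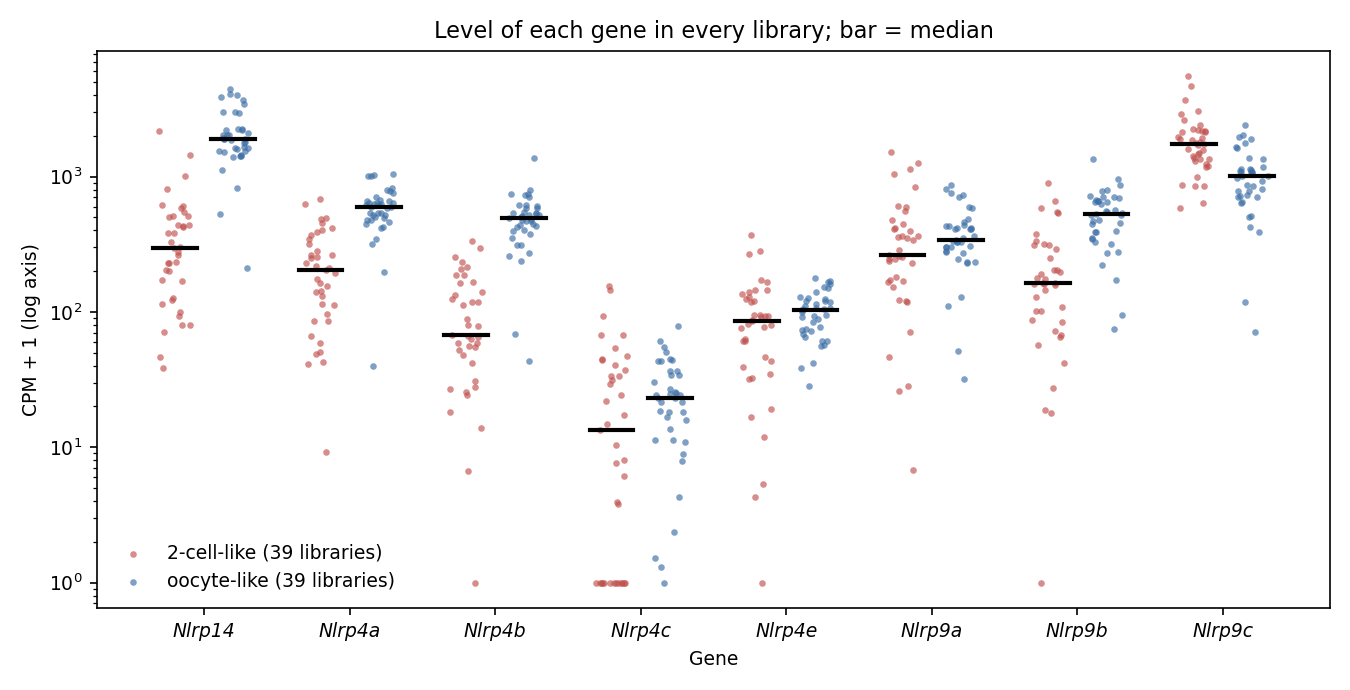
Level of each of the 8 genes in every 2-cell-like library (red, 39) and oocyte-like library (blue, 39), as CPM plus 1 on a log axis, with black bars at the medians. Nlrp14, Nlrp4a, Nlrp4b and Nlrp9b sit lower in 2-cell-like libraries, Nlrp9c sits higher, and Nlrp4c, Nlrp4e and Nlrp9a overlap broadly.

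Nlrp14 had 37.4 to 2181 CPM in 2-cell-like libraries, with a median of 295 CPM, against 210 to 4448 CPM in oocyte-like libraries, with a median of 1888 CPM. The groups overlapped, yet 38 of 39 2-cell-like libraries lay below the oocyte-like median. The pooled level was 439 CPM (433 to 444) in 2-cell-like and 2122 CPM (2113 to 2130) in oocyte-like libraries, which is 4.84-fold lower (4.78 to 4.90). The lowest oocyte-like library, number 61, labelled wild-type 2-cell, also had the highest cumulus and granulosa marker sum, 11638 CPM. Without it, 31 of 39 2-cell-like libraries lay below every oocyte-like library, against 14 of 39 with it.

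The Nlrp4 genes split into pairs. Nlrp4b had 0 to 331 CPM in 2-cell-like libraries, median 66.6 CPM, against 42.5 to 1361 CPM in oocyte-like libraries, median 491 CPM. All 39 2-cell-like libraries lay below the oocyte-like median, and the pooled level was 4.38-fold lower (4.27 to 4.49). Nlrp4a had 8.25 to 684 CPM in 2-cell-like libraries, median 202 CPM, against 38.9 to 1040 CPM in oocyte-like libraries, median 597 CPM. Its pooled level was 2.34-fold lower (2.30 to 2.38), with 37 of 39 2-cell-like libraries below the oocyte-like median. The other pair, whose transcripts are the most alike, overlapped broadly between the classes.

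Nlrp4e had 0 to 367 CPM in 2-cell-like libraries, median 83.9 CPM, against 27.4 to 178 CPM in oocyte-like libraries, median 102 CPM, and a pooled log2 ratio of 0.01, which was -0.21 with TMM scaling and -0.12 with DESeq2 size factors. Nlrp4c was the lowest member in both classes, with 0 to 156 CPM and a median of 12.5 CPM in 2-cell-like libraries, against 0 to 78.0 CPM and a median of 22.3 CPM in oocyte-like libraries. A count of it was present in 26 of 39 2-cell-like libraries (66.7%) and in 38 of 39 oocyte-like libraries (97.4%). With every library thinned to 100000 counts, it was present in 22 2-cell-like and 30 oocyte-like libraries, where its median was 1 count and 2 counts. The pooled log2 ratio of Nlrp4c was 0.18, but the ratio of medians, 1 CPM added to each, gave -0.79 and TMM scaling -0.04, so its direction depended on how the libraries were summed. The same holds for Nlrp4e, at -0.28 by medians.

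With all labels pooled, the 3 Nlrp9 genes took 3 different courses, though Nlrp9a was lower within the labels wild-type oocyte and mutant 2-cell, as given below. Nlrp9b had 0 to 900 CPM in 2-cell-like libraries, median 162 CPM, against 73.8 to 1341 CPM in oocyte-like libraries, median 529 CPM. It was 2.48-fold lower in the pool (2.43 to 2.52), with 34 of 39 2-cell-like libraries below the oocyte-like median. Nlrp9a had 5.80 to 1526 CPM in 2-cell-like libraries, median 261 CPM, against 30.8 to 863 CPM in oocyte-like libraries, median 341 CPM. The groups overlapped for all but 7 of the 2-cell-like libraries, with 3 below and 4 above the oocyte-like range, and the pooled log2 ratio was 0.08, or -0.38 by medians, -0.14 with TMM scaling and -0.04 with DESeq2 size factors. Nlrp9c had 579 to 5521 CPM in 2-cell-like libraries, median 1739 CPM, against 70.2 to 2390 CPM in oocyte-like libraries, median 1005 CPM. It was 1.84-fold higher in the pool (1.83 to 1.86), and 33 of 39 2-cell-like libraries lay above the oocyte-like median. Nlrp9c was thus the only member with a pooled log2 ratio above 0.5, at 0.88, and it kept a ratio above 1 in all alternatives tried, with log2 ratios of 0.50 to 0.92.

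Labels that hold both classes let the classes be compared among libraries with the same label. Within each label the classes followed library numbers. Under the label wild-type oocyte, 2-cell-like libraries ran from 2 to 8 and oocyte-like ones from 9 to 22. Under the label mutant 2-cell, they ran from 73 to 83, with 88, and from 84 to 94. Class and library position cannot be told apart there, and a shared label need not mean a shared genotype or source. Among libraries labelled wild-type oocyte, all 7 2-cell-like libraries lay below all 12 oocyte-like ones for Nlrp14, which was 4.45-fold lower (4.34 to 4.57), for Nlrp4b (3.47-fold lower) and for Nlrp9b (6.12-fold lower). In that comparison 4 members were at least 2-fold lower and 0 higher, where 33.9% of 9362 genes were lower and 22.6% higher. Among libraries labelled mutant 2-cell, all 11 2-cell-like libraries lay below all 9 oocyte-like ones for Nlrp14, which was 8.66-fold lower (8.37 to 8.97), and for Nlrp4b (7.03-fold lower). Here 5 members were at least 2-fold lower and 0 higher, where 26.2% of 9478 genes were lower and 30.6% higher. The share of all genes whose libraries separate fully was not counted under either label. These separations therefore cannot be read as particular to the members.

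Nlrp9a, with no clear difference between the classes as a whole, was lower within both labels. Its pooled level was 245 CPM in 2-cell-like against 434 CPM in oocyte-like libraries labelled wild-type oocyte, a ratio of 0.564 (0.542 to 0.587), which moved to 0.437 without library 4. It was 180 CPM in 2-cell-like against 378 CPM in oocyte-like libraries labelled mutant 2-cell, a ratio of 0.476 (0.455 to 0.497), which moved to 0.534 without library 74 and also passed 0.5 without library 73 or 77. The pooled level was higher in the other 2-cell-like libraries, 513 CPM in the 19 labelled mutant oocyte, which have no oocyte-like counterpart, and 597 CPM in the 2 labelled negative control. Nlrp4e was also lower within both labels, at a ratio of 0.654 (0.605 to 0.706) under the label wild-type oocyte and 0.685 (0.634 to 0.740) under the label mutant 2-cell. Nlrp9c was higher within both labels, 1.44-fold (1.42 to 1.47) under the label wild-type oocyte and 1.42-fold (1.39 to 1.44) under the label mutant 2-cell. Each of the 7 2-cell-like libraries labelled wild-type oocyte lay above the median of the oocyte-like libraries of that label for Nlrp9c, and all 7 lay inside their range.

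The make-up of the sum of these 8 genes changed more clearly than the levels. Shares in a sum are tied, so that a share rises when other members fall. The sum leaves out Nlrp4f, an oocyte NLRP gene off the list, with a median of 1061 CPM in 2-cell-like and 2040 CPM in oocyte-like libraries. As a share of the summed counts of the 8 genes, which no library scaling can alter, Nlrp9c made up 29.1% to 83.3% in 2-cell-like libraries, median 61.8%, against 11.0% to 29.6% in oocyte-like libraries, median 18.8%. For 38 of 39 2-cell-like libraries this share was above that of every oocyte-like library. Nlrp14 made up 1.60% to 24.4% in 2-cell-like libraries, median 9.34%, against 27.7% to 53.2% in oocyte-like libraries, median 38.9%, and the groups did not overlap. The Nlrp4b share, median 2.97% in 2-cell-like and 9.11% in oocyte-like libraries, was below that of every oocyte-like library in 36 of 39 2-cell-like libraries.

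Nlrp9c was the largest of the 8 in 39 of 39 2-cell-like libraries, and Nlrp14 in 38 of 39 oocyte-like libraries. The exception was library 9, labelled wild-type oocyte, with 2015 CPM of Nlrp9c and 1888 CPM of Nlrp14. The ratio of Nlrp9c to Nlrp14 was 1.83 to 45.8 in 2-cell-like libraries, median 6.81, and 0.225 to 1.07 in oocyte-like libraries, median 0.489. The sum of the 8 genes was 774 to 10637 CPM in 2-cell-like libraries, median 3053 CPM, and 593 to 10322 CPM in oocyte-like libraries, median 4986 CPM, so the sums overlapped over most of their range.

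**Figure D2:**
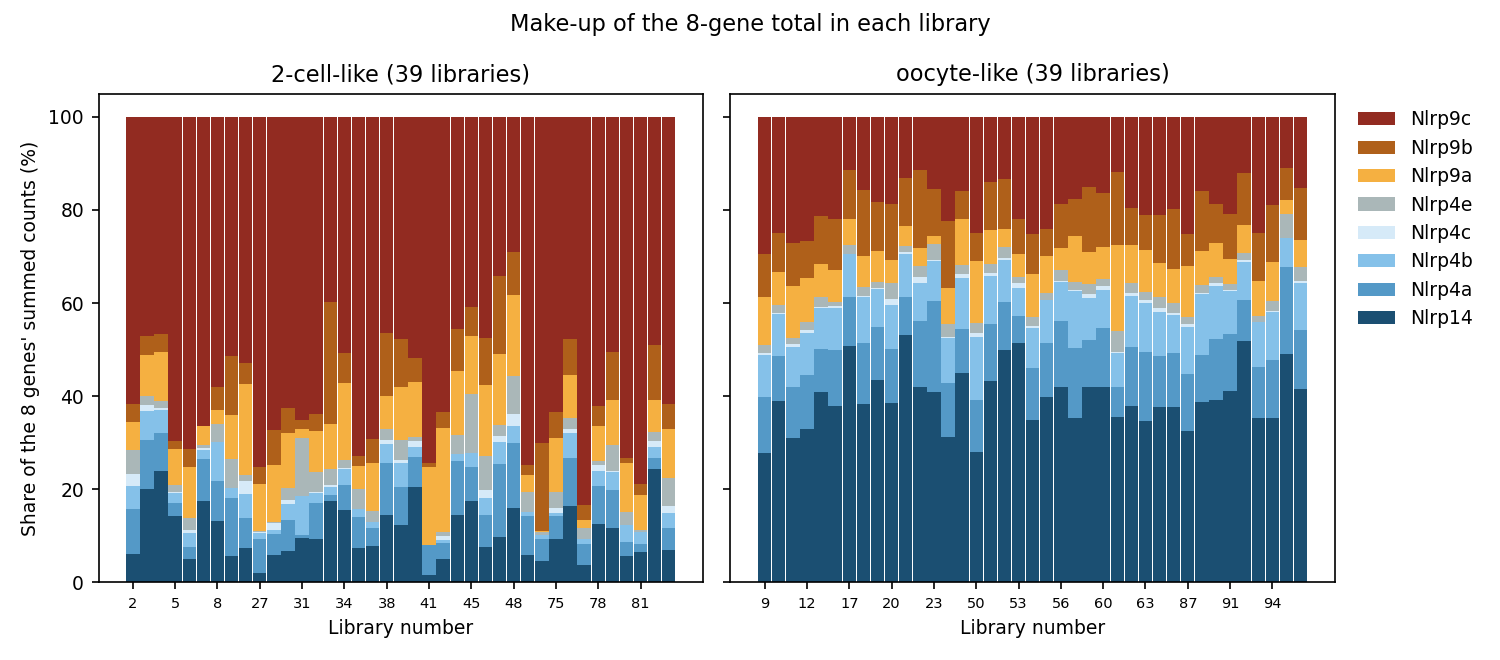
Share of each gene in the summed counts of the 8 genes, in percent, with 1 stacked bar per library in order of library number, 2-cell-like libraries on the left and oocyte-like libraries on the right. The dark red Nlrp9c segment has a median of 61.8% in 2-cell-like and 18.8% in oocyte-like libraries, and the dark blue Nlrp14 segment 9.34% and 38.9% in these classes.

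Per kilobase of transcript, which allows genes to be set against each other, the median in 2-cell-like libraries was highest for Nlrp9c, 541 CPM per kb. Nlrp14 (90.3), Nlrp9a (78.1), Nlrp9b (48.5), Nlrp4a (47.5), Nlrp4e (24.8), Nlrp4b (20.0) and Nlrp4c (3.46 CPM per kb) followed. Of neighbours in this order only Nlrp9c and Nlrp14 had interquartile ranges over libraries that did not overlap, together with Nlrp4b and Nlrp4c. In oocyte-like libraries the order was Nlrp14 (577 CPM per kb), Nlrp9c (313), Nlrp9b (158), Nlrp4b (148), Nlrp4a (140), Nlrp9a (102), Nlrp4e (30.1) and Nlrp4c (6.16 CPM per kb). Within the run of Nlrp9b, Nlrp4b, Nlrp4a and Nlrp9a, the interquartile ranges of neighbours overlapped. Those of all other neighbours in this order did not, including Nlrp9c with Nlrp9b and Nlrp9a with Nlrp4e.

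Across single libraries the members went up and down together, more tightly in the oocyte-like class. Spearman's rho of log2(CPM + 1) over 28 pairs of members was -0.11 to 0.67 in 39 2-cell-like libraries, median 0.45, and 0.28 to 0.87 in 39 oocyte-like libraries, median 0.62, or 0.58 without library 61. The tightest pair in the 2-cell-like class was Nlrp4a with Nlrp9a, and in the oocyte-like class Nlrp4a with Nlrp4b. Among the Nlrp9 genes, rho was 0.55 in 2-cell-like and 0.79 in oocyte-like libraries for Nlrp9a with Nlrp9c, 0.57 in 2-cell-like and 0.47 in oocyte-like libraries for Nlrp9a with Nlrp9b, and 0.06 in 2-cell-like and 0.56 in oocyte-like libraries for Nlrp9b with Nlrp9c. The pair with shared upstream bases had about the same rho as Nlrp9a with Nlrp9b in 2-cell-like libraries and a higher rho in oocyte-like libraries. Whether these bases, or reads shared between the transcripts, play a part was not tested. All pairs share the library, its depth and its content of other RNA. In oocyte-like libraries rho between each member and the cumulus and granulosa marker sum was -0.59 (Nlrp4e, Nlrp9b) to -0.17 (Nlrp4c). In 2-cell-like libraries, where that sum was at most 139 CPM, it was -0.41 (Nlrp9c) to 0.25 (Nlrp9b), and its part in the correlations was not tested.

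**Figure D3:**
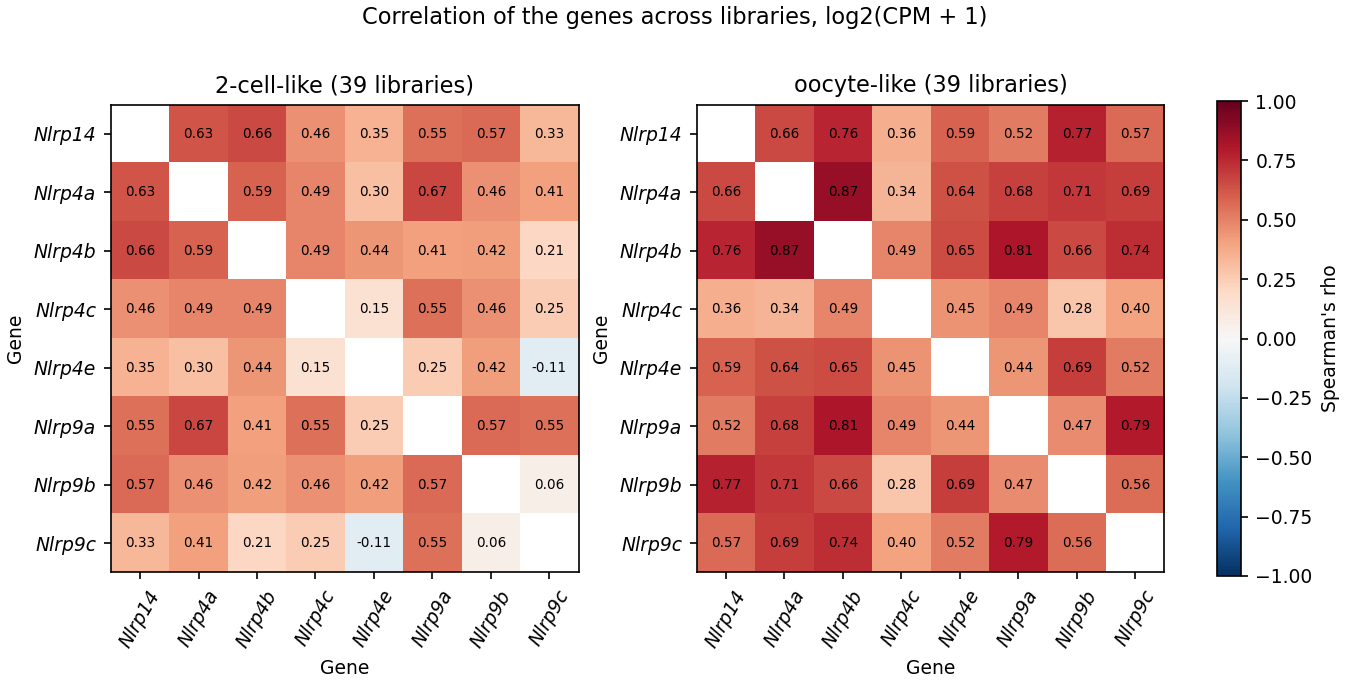
Spearman's rho between each pair of genes over the 39 2-cell-like libraries (left) and the 39 oocyte-like libraries (right), computed on log2(CPM + 1), from blue (-1) to red (1). Values run from -0.11 to 0.67 on the left and from 0.28 to 0.87 on the right.

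The genes most like each member over all 78 classed libraries, by Pearson's r of log2(CPM + 1), were looked for among 8821 genes. For Nlrp14 they were Rdx (0.88), which encodes radixin, Camsap3 (0.83), which encodes a protein of microtubule minus ends, and Jag1 (0.82), a Notch ligand. For Nlrp4a and Nlrp4b the first were Fbxw28 (0.86) and Fbxw24 (0.85), F-box genes. Nlrp9b was most like Nlrp4f (0.74), another oocyte NLRP gene, Nlrp9a most like Kbtbd8 (0.78), and Nlrp9c most like Tiparp (0.85), which encodes an ADP-ribosyltransferase. Nlrp4c (Eri1, 0.61) and Nlrp4e (Eif4enif1, 0.68) had the weakest matches. The points share library and depth, and the step between the classes enters these values: within classes, rho of Nlrp14 with Rdx was 0.47 in 2-cell-like and 0.67 in oocyte-like libraries, and that of Nlrp9c with Tiparp was 0.63 in 2-cell-like and 0.75 in oocyte-like libraries.

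The question of the study's design, how the Padi6 variant bears on oocytes and embryos, was put to the members within each class. The genotype comes from the same labels whose stage went against the RNA, and the counts do not show the variant, so the genotype labels may be wrong as well and could not be checked. In the oocyte-like class, 9 libraries with a mutant label, all labelled 2-cell, were set against 26 with a wild-type label. None of the 8 members differed 2-fold, where 0.429% of 9093 genes were higher by that much and 15.8% lower. Cumulus and granulosa markers were uneven between these groups. They reached 1000 CPM in library 87 of the mutant label, and in libraries 16, 17, 49, 54, 55, 57, 59, 60 and 61 of wild-type labels. The part of such RNA in the shares of all genes was not tested, so the members cannot be read as steadier than other genes. Nlrp14 was 2121 CPM in mutant-label and 2203 CPM in wild-type-label libraries in the pool, a ratio of 0.963 (0.954 to 0.972). Nlrp9c was 1032 CPM in mutant-label and 1073 CPM in wild-type-label libraries, a ratio of 0.962 (0.948 to 0.975). The log2 ratios of 7 members lay from -0.09 to 0.12, and that of the low Nlrp4c was -0.69, with 16.7 CPM in mutant-label and 26.8 CPM in wild-type-label libraries and all 9 mutant-label libraries inside the wild-type range.

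In the 2-cell-like class, 30 libraries with a mutant label were set against 7 with a wild-type label, all 7 of them labelled oocyte. Nlrp9b had 17.0 to 900 CPM in mutant-label libraries, median 176 CPM, against 0 to 164 CPM in wild-type-label libraries, median 101 CPM. Of the 30 mutant-label libraries 16 lay above all 7 wild-type-label ones, and 14 lay among them. The pooled level was 227 CPM in mutant-label and 104 CPM in wild-type-label libraries, 2.18-fold higher (2.06 to 2.32). Nlrp9b was the 1 member of 8 at or past 2-fold higher, where 18.6% of 8549 genes were so, and 0 were at least 2-fold lower, where 6.32% of genes were so. Without library 7, a wild-type-label library with 0 counts of Nlrp9b, the ratio was 1.86.

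Nlrp9a was 1.71-fold higher in the mutant-label libraries (1.65 to 1.78) and 2.21-fold higher without library 4, a wild-type-label one. Nlrp4e was 1.55-fold higher (1.43 to 1.67). Nlrp4b was 1.59-fold lower (1.51 to 1.68), with 13 of 30 mutant-label libraries below all wild-type-label ones, and Nlrp14 was 1.28-fold lower (1.24 to 1.32), or 1.03-fold higher without library 4. The pooled Nlrp9c levels, 2001 CPM in mutant-label and 1765 CPM in wild-type-label libraries, differed by less than the spread between libraries, with 12 mutant-label libraries above and 8 below the wild-type-label range. The 11 libraries labelled mutant 2-cell and the 19 labelled mutant oocyte differed among themselves. Their pooled levels were 180 CPM in mutant 2-cell and 513 CPM in mutant oocyte libraries for Nlrp9a, and 160 CPM in mutant 2-cell and 253 CPM in mutant oocyte libraries for Nlrp9b. The sum of 6 markers of the 2-cell stage also differed between the labels of this class. It was 39.6 to 1367 CPM in mutant oocyte, 917 to 2727 CPM in mutant 2-cell and 520 to 1975 CPM in wild-type oocyte libraries. Genotype, the level of these markers and the animals or days behind each label cannot be told apart.

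**Figure D4:**
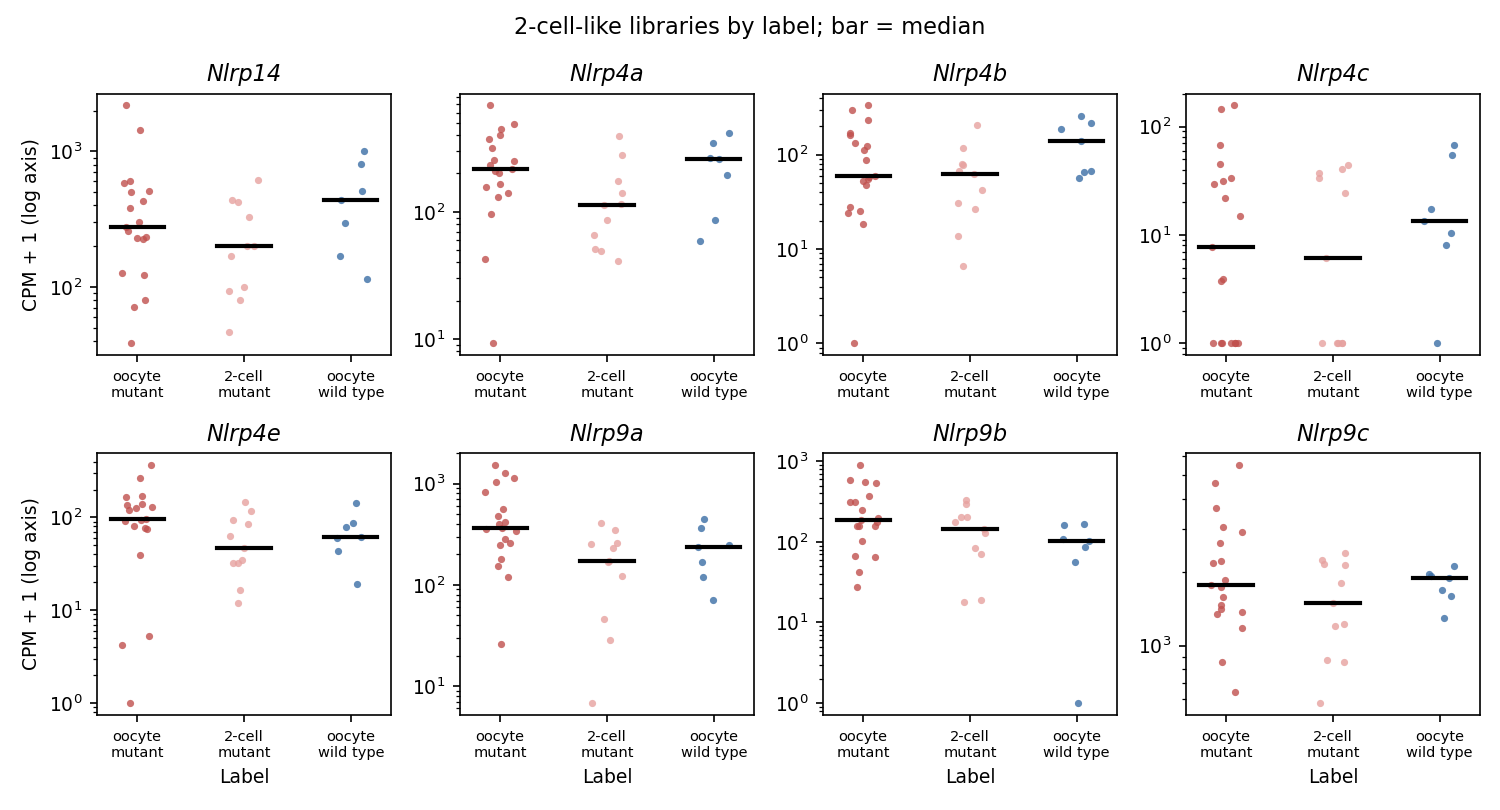
Level of each gene, as CPM plus 1 on a log axis, in the 2-cell-like libraries labelled mutant oocyte (19), mutant 2-cell (11) and wild-type oocyte (7), with black bars at the medians. For Nlrp9b, 16 of the 30 mutant-label libraries lie above all 7 wild-type ones, and for Nlrp4b 13 of 30 lie below them, while the groups overlap for every gene.

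Read by label alone, the comparisons mixed the classes in unequal parts. Mutant against wild-type oocyte labels set 19 2-cell-like libraries against 7 2-cell-like and 12 oocyte-like ones. There Nlrp4b was 4.16-fold lower (4.02 to 4.31), Nlrp14 4.01-fold lower (3.94 to 4.07), Nlrp4a 2.09-fold lower (2.05 to 2.14) and Nlrp9b 2.01-fold lower (1.97 to 2.06), and Nlrp9c was 1.64-fold higher (1.62 to 1.65). These 4 lower and 0 higher members stand beside 22.7% of 9122 genes lower and 16.8% higher; with TMM scaling, the higher share of all such calls was 32.1% instead of 42.4%. Nlrp4a passed under 2-fold without library 19 or 31, at ratios of up to 0.513. Nlrp9b did so without any 1 of 17 libraries (9, 11, 12, 14, 18, 19, 21, 25, 27, 28, 29, 31, 32, 36, 41, 42 and 45), with a ratio of up to 0.532.

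Mutant against wild-type 2-cell labels set 11 2-cell-like libraries, 9 oocyte-like ones and library 86 against 14 oocyte-like ones. None of the 8 members differed 2-fold, where 7.88% of 9996 genes were higher and 11.8% lower. Log2 ratios were -0.80 (Nlrp4c) to 0.27 (Nlrp9c), and Nlrp14 stood at -0.56. The 2-cell over oocyte labels of the wild type compared 14 oocyte-like libraries with the mixed wild-type oocyte label, and no member differed 2-fold, with log2 ratios of -0.55 (Nlrp9c) to 0.13 (Nlrp4c). Among all 9688 genes 17.6% were higher and 3.65% lower, with 82.8% of such calls higher, or 68.9% with DESeq2 size factors.

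The 2-cell over oocyte labels of the mutant set the mixed mutant 2-cell label against 19 2-cell-like libraries. By label, then, Nlrp14 was 2.85-fold higher (2.80 to 2.90) in 2-cell libraries and Nlrp4b 3.10-fold higher (2.99 to 3.22), the opposite direction to the classes, and 0 members were 2-fold lower, where 23.0% of 9164 genes were higher and 10.2% lower. Nlrp9c was 0.505 of the oocyte-label level (0.499 to 0.511), and leaving out any 1 of 14 libraries (25, 27, 28, 31, 32, 39, 43, 45, 75, 76, 77, 78, 81 and 88) took it past 2-fold lower, to 0.482 at the lowest. Nlrp4c, at a log2 ratio of -0.82, passed that limit without library 84, at a ratio of 0.499. These label comparisons share groups, so they do not stand for separate evidence.

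**Figure D5:**
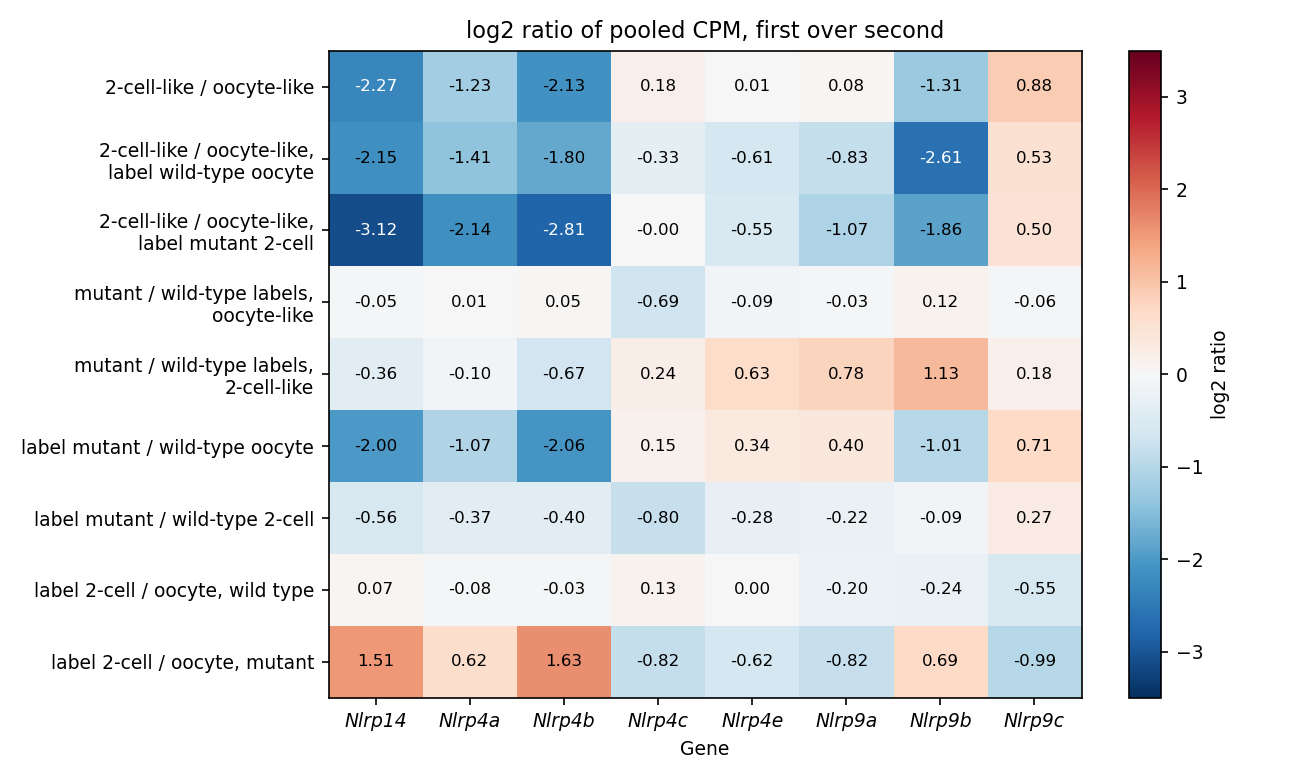
Log2 ratio of the pooled CPM of each gene, from blue (lower in the group named before the stroke) to red (higher in it), for the classes, the classes within a label, the genotype labels within each class and the labels alone. The top 3 lines are blue for Nlrp14, Nlrp4a, Nlrp4b and Nlrp9b, and the bottom line, by label in the mutant, is red for these 4 genes.

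Few other NLR genes were measured above the level filter. Of 22 on the list, 20 were in the table and 5 passed the level filter between the classes: Nlrp5, which encodes the MATER protein of the subcortical maternal complex, Nlrp2, Nlrp4f, Nlrc4 and Nod2. In 2-cell-like against oocyte-like libraries, 3 were at least 2-fold lower (Nlrc4, log2 -2.26, Nlrp5, -1.96, and Nlrp2, -1.23), 0 were higher, and Nlrp4f and Nod2 stood at -0.58 and -0.22. Of all 9677 genes compared, 27.8% were lower and 20.9% higher by that much. Of the inflammasome genes Pycard, Casp1, Casp4, Il1b, Il18 and Gsdmd, all 6 were in the table and 0 passed the filter, with pooled levels of at most 4.31 CPM in 2-cell-like and 7.45 CPM in oocyte-like libraries (both Pycard). Uhrf1, whose protein has been tied to NLRP14, was 500 CPM in 2-cell-like and 1126 CPM in oocyte-like libraries, 2.25-fold lower (2.23 to 2.28), and Slc8b1, which encodes NCLX, was below the filter.

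Among 8 genes of the maternal complex and lattices, 1 was at least 2-fold higher in 2-cell-like libraries, Zbed3 with 21292 CPM in 2-cell-like and 7507 CPM in oocyte-like libraries, and 4 were lower, Padi6 (-4.38), Nlrp5, Tle6 (-1.24) and Nlrp2. These counts stand beside 20.9% of 9677 genes higher and 27.8% lower. In the genotype comparison of the 2-cell-like class, 1 of these 8 was at least 2-fold higher and 1 lower, where 18.6% of 8549 genes were higher and 6.32% lower. Nlrp4f, the gene most like Nlrp9b, was 1528 CPM in mutant-label and 405 CPM in wild-type-label libraries, 3.77-fold higher (3.66 to 3.89). Khdc3, which encodes the FILIA protein of the complex, was 60.1 CPM in mutant-label and 238 CPM in wild-type-label libraries, 3.96-fold lower (3.76 to 4.18).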

How the data were processed

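RNA was measured in 96 single-cell libraries; per the labels' protocols, polyadenylated RNA was captured on beads after separation from DNA and amplified with 15 PCR cycles, and no molecular identifiers are named. The authors deposited raw gene counts. Reads were trimmed with Trim Galore 0.4.4 and aligned with HISAT2 2.1.0 to GRCm39, and DESeq2 was used, per the submitters' processing notes; the counter and strand setting are not given in the sources used here. Of 36983 entries, 48 repeated a symbol and were summed into it, and 0 columns lacked a sample. No pair of the 96 columns was identical (0 pairs).

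CPM were computed on each library's total. Genes were compared with a pooled level of at least 10 CPM in 1 group and a count in at least 50% of the libraries of the higher group; a group at 0 was set to 3 counts over the group. Levels have exact Poisson and ratios exact conditional binomial 95% intervals, which cover counting error only. No test was run, since no animals are named. The arithmetic was tested on simulated data. The members and lists were chosen with earlier results of these data known. The genes named are the 8 members, the 3 genes most like each, and list genes that passed the filter; the text gives a part of them. Sequences are from RefSeq (GRCm38.p6) and GENCODE M21, aligned with MAFFT 7.526; 7 of 8 members matched a promoter window, 9 windows in all, and no window of Nlrp14 was used. Doublets were not searched for. Alternatives used edgeR 4.0.16 (TMM) and DESeq2 1.42.0 size factors. Python 3.11.15, pandas 2.3.3 and scipy 1.17.1 were used.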

Additional observations from a re-analysis of the deposited data

Results flagged for a closer look

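Library 89, labelled mutant 2-cell and oocyte-like, with 309429 counts, stood apart from the other 8 oocyte-like libraries of its label for 3 genes by Dixon's criterion: Nlrp4b at 1361 CPM (next highest 585 CPM), Nlrp9a at 756 CPM (next 482 CPM) and Nlrp9c at 1642 CPM (next 1142 CPM). Of 24 sets of 1 gene in 1 label and class that were examined, 3 stood out in this way, all through the same library, so they are not separate events. The criterion's rate of about 1 in 20 by chance is for independent, normally distributed values, so it cannot be set against these 3.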

How the results depend on the processing

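Of 745 recomputed values, 734 moved by less than the spread between libraries, kept their count within 1.5 times or, for a share of libraries, moved by under 5 percentage points, and 11 moved further. That spread was wide: in 2-cell-like libraries the standard deviation of log2(CPM + 1) was 0.696 (Nlrp9c) to 2.55 (Nlrp4c). A ratio could change sign within it, so the 734 do not show that each ratio held. Of 520 recomputed log2 ratios of single genes, 67 changed sign, 0 of them from a ratio past 2-fold. The 4 genes at least 2-fold lower in 2-cell-like libraries stayed so under every alternative, with the log2 ratio of Nlrp14 between -3.12 and -2.15. TMM scaling shifted the median log2 ratio of all genes between the classes by -0.22 and DESeq2 size factors by -0.12; the log2 ratio of Nlrp14 was -2.49 with TMM and -2.40 with DESeq2 size factors, and the signs of Nlrp4e, Nlrp9a and, with TMM, Nlrp4c turned. Nlrp9c exceeded Nlrp14 in 2.56% of oocyte-like libraries and in 8.33% of those labelled wild-type oocyte. In the 2-cell-like genotype comparison, the members 2-fold higher (1) were 0 by library medians, 2 for mutant against wild-type oocyte labels alone, and 0 to 2 with 1 library left out (0 without library 7, 2 without library 4); those lower (0) were 1 by library medians. By label alone, the lower members among oocyte labels (4) were 2 without library 19, those among 2-cell labels (0) were 3 by library medians, and those of 2-cell over oocyte in the mutant (0) were 1 with DESeq2 size factors, 1 after thinning and 1 without library 88. Without the level filter, 36.7% of 27797 genes were 2-fold higher and 23.5% 2-fold lower between the classes, against 20.9% and 27.8% of 9677 with it. Where a call moved, the cause was not tested. The settings without library 61, without libraries high in cumulus markers, within a label and with the mutant oocyte label alone were chosen after seeing the data. No paired analysis was possible because the library numbers are unique to each group and no test was run. Depth limits Nlrp4c most, at a median of 1 count per 100000 in 2-cell-like libraries.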

Other observations

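Of the 18 libraries outside the classes, 9 had a count of at least 1 member and 9 had none. Library 86, labelled mutant 2-cell, had 2374644 counts, 0 counts of all 8 members and 6615 CPM of cumulus and granulosa markers, against 8.00 CPM of the 8 oocyte markers together. Of the 17 libraries below the filter, library 1, labelled wild-type oocyte, had 2693568 counts over 3775 genes, with 5369 counts of Nlrp9c and 562 counts of Nlrp14, and Zfp352 at 375 CPM. Library 66, labelled wild-type 2-cell, with 42270 counts, had 562 counts of Nlrp9a against 101 counts of Nlrp14 and 42 counts of Nlrp9c, an order seen in none of the 78 classed libraries, where Nlrp9a was never the largest (0 libraries). Library 71, a negative control with 1857 counts, had 79 counts of Nlrp4b and 0 counts of the other 7 members, and library 35, labelled mutant oocyte, with 70634 counts, had 278 counts of Nlrp4a and 0 counts of the others.

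The 6 negative controls that passed the filter held all members but Nlrp4c in 1 library. Their Nlrp14 level was 380 and 542 CPM in the 2-cell-like ones, and 523, 1120, 1410 and 1928 CPM in the oocyte-like ones, so a background without a cell could not be read from them.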
